A study of Mus musculus with 9 samples.

Results

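Chemokines are small secreted or membrane-tethered proteins that steer leukocytes, and 10 chemokine genes other than Ccl21 were followed here in mouse meningeal lymphatic endothelial cells (MLECs). They were Ccl2, Ccl5, Ccl7, Ccl19, Cxcl1, Cxcl9, Cxcl10, Cxcl12, Cxcl16 and Cx3cl1, picked by gene symbol from a table of 24321 genes, in which each of the 10 had 1 row. Cx3cl1, the membrane-bound chemokine fractalkine, had a higher level in all 6 tumor-associated libraries than in any control library. Cxcl9 and Cxcl10, both ligands of CXCR3, were listed at 0 in all 3 control libraries and above 0 in all 3 libraries from mice with GL261 glioma. Ccl2, Ccl5, Ccl7, Ccl19, Cxcl1, Cxcl12 and Cxcl16 did not pass the test across all genes in any comparison, or were too rarely detected to be tested.

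The cells came from male C57BL/6 mice, 10 weeks old per the labels, that had received PBS (control), GL261 glioma cells or B16 melanoma cells, both of which are tumor lines of C57BL/6 origin. Per the labels, MLECs were collected about 3 weeks after GL261 and about 2 weeks after B16 injection, in which case tumor type and time cannot be told apart, whereas the study's results give 2 weeks for all groups and its methods 2 to 3 weeks. Each group had 3 libraries, each library held 10 sorted cells, and each pool of cells came from the meninges of 6 mice. The labels and the methods name stains for CD31, LYVE-1 and the leukocyte antigen CD45, whereas the study's results describe cells that were CD45-, CD31+ and PDPN+. The labels describe an injection into the cisterna magna and the study's methods a subdural one, with different cell numbers.

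Inflammatory chemokines are switched on by cytokines such as tumor necrosis factor, interleukin-1 and interferons, and they recruit neutrophils, monocytes and activated T cells, whereas homeostatic chemokines such as Cxcl12 and Ccl19 are made without inflammation and position cells within tissues. Lymphatic endothelium uses chemokines to draw dendritic cells and T cells into lymphatic vessels, and it also carries atypical receptors that bind chemokines without signaling through G proteins and remove or move them. Chemokines bound to heparan sulfate on the endothelial surface form the gradients along which leukocytes migrate.

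All values are FPKM (fragments per kilobase of transcript and per 1000000 mapped fragments), which are scaled by transcript length, so that levels may be compared between genes. A difference is one of log2(FPKM + 1) between group means, a scale that makes changes of low genes look smaller. The test was limma over the 9955 genes that reached an FPKM of 1 in 3 or more libraries, with p adjusted over all of them and a threshold of 0.05. GL261 and B16 together are called tumor-associated, and all comparisons with control share the same 3 control libraries. Depth, estimated from the smallest steps between low FPKM, was 1.20 to 1.89 M fragments (M, 1000000) for the control libraries, whereas the tumor-associated libraries had 2.01 to 8.00 M. Every control library was thus shallower than every tumor-associated one, and depth and tumor cannot be told apart by design. Tbp, a general transcription factor that every cell uses, was at 0, 1.31 and 0 in the control libraries, so a chemokine at 0 is given as listed at 0 and not as absent. In bulk samples, fewer cells of a type and less RNA per cell cannot be told apart, and in a library of 10 cells a value can come from very few of them.

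The number of chemokines listed above 0 was 2, 4 and 4 of 10 in the control libraries, 8, 8 and 9 in the GL261 libraries and 6, 5 and 6 in the B16 libraries. Summed over the 10, FPKM ranged from 62.1 to 142.5 among the control libraries, from 517 to 1266 among GL261 and from 80.3 to 240.7 among B16 libraries. The GL261 libraries were thus the highest by both measures, and they did not overlap with the other groups. They were also the deepest group. In the order of the counts above, estimated depth was 7.52, 8.00 and 4.38 M fragments in GL261 and 2.01, 3.73 and 4.53 M in B16 libraries. The control libraries, at 1.20 to 1.89 M, were the shallowest and had the fewest chemokines above 0. The part of depth in these numbers was not tested.

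**Figure D1:**
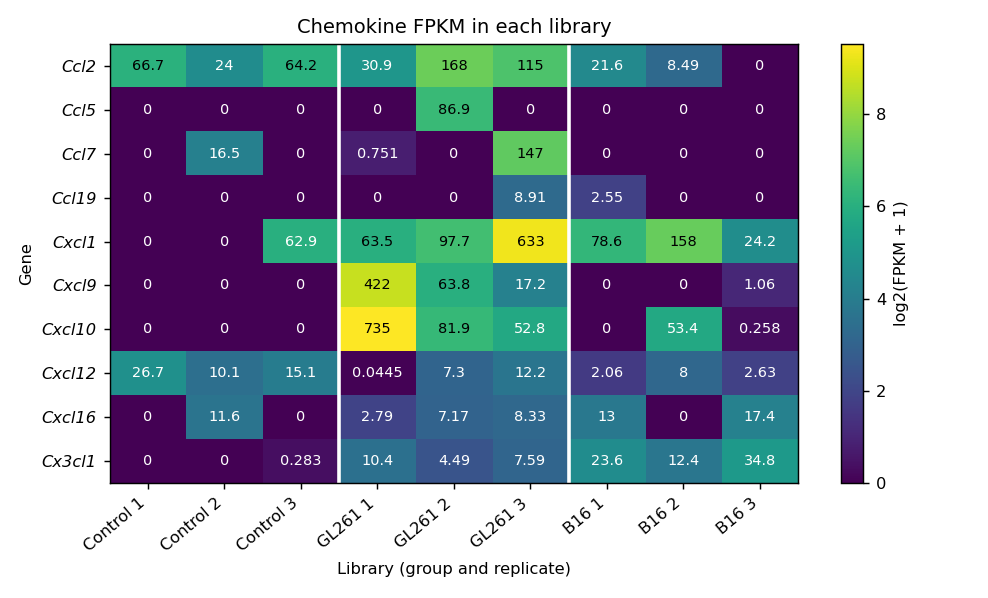
FPKM of the 10 chemokines (rows) in each of the 9 libraries (columns), printed in the cells and coloured by log2(FPKM + 1). Cxcl9 and Cxcl10 are at 0 in all 3 control libraries and highest in GL261 replicate 1, whereas Ccl5 is above 0 in a single library.

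**Figure D2:**
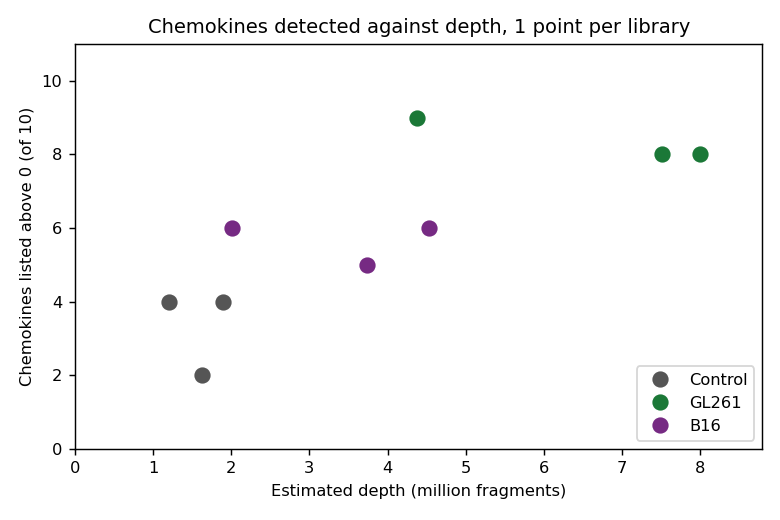
Number of the 10 chemokines listed above 0 (vertical axis) against the estimated depth in M fragments (horizontal axis), with 1 point per library coloured by group. The control libraries lie lowest on both axes, and the GL261 libraries hold 8 or 9 chemokines.

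Of the 10 chemokines, 7 passed the filter and were tested (Ccl5, Ccl7 and Ccl19 did not). In tumor-associated against control MLECs, 1 of the 7, Cx3cl1, was called, in the higher direction, beside 391 of all genes tested (3.93%, and 2.9% in that direction). In GL261 against control MLECs, 2 were called, Cxcl9 and Cxcl10, both higher, beside 3.49% of all genes tested (2.58% higher). In B16 against control MLECs, 1 was called, again Cx3cl1 and again higher, beside 2.11% of all genes tested (1.61% higher). Between GL261 and B16 MLECs none was called, 3 of the 7 had an unadjusted p under 0.05 (Ccl2, Cxcl9 and Cxcl10), and limma called 0.01% of all genes tested, with 548 at an unadjusted p under 0.05. The median difference of the 7 was 2.90 in GL261 and 1.45 in B16 against control, beside 0.23 and 0.20 for all genes tested. The middle value was that of Cx3cl1 in GL261 and that of Cxcl16 in B16. Groups without overlap were found for 4 of the 10 in GL261 against control MLECs (Cxcl1, Cxcl9, Cxcl10 and Cx3cl1, all higher), against 22.5% of all genes tested. In tumor-associated against control MLECs the middle value of the 7 was that of Cxcl9, which was at 0 in every control library and has no interpretable fold, while the median of all genes tested was 0.20. That shift of all genes became 0.05 when each library was rescaled to the same sum, with which the calls for Cx3cl1 in tumor-associated MLECs (adjusted p = 0.0199) and for Cxcl9 and Cxcl10 in GL261 MLECs (adjusted p = 0.0108 and 0.0294) held. The called genes Cx3cl1, Cxcl9 and Cxcl10 reached an FPKM of 1 in no control library. They passed the filter through tumor-associated libraries alone. A gene that passed the filter only through the group where it was high had to differ between groups. These counts and medians thus describe the 7 genes that could be tested and not all 10.

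Cxcl9 and Cxcl10 bind CXCR3 on activated T cells and natural killer cells and are classical targets of interferon. The genes are neighbours on mouse chromosome 5, Cxcl9 at chr5:92750357-92757105 and Cxcl10 at chr5:92775664-92777915 (mm9, minus strand), with 18.558 kb between them. Cxcl9 was listed at 0, 0 and 0 in control, at 422, 63.8 and 17.2 in GL261 and at 0, 0 and 1.06 in B16 MLECs. Each GL261 library was above every other library, and the single positive B16 library held about 13 estimated fragments of the gene. Cxcl10 was listed at 0, 0 and 0 in control, at 735, 81.9 and 52.8 in GL261 and at 0, 53.4 and 0.258 in B16 MLECs. B16 replicate 2 therefore overlapped with the GL261 libraries for Cxcl10 but was listed at 0 for Cxcl9, and the 0.258 of B16 replicate 3 amounted to about 1 fragment.

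Cxcl9 was called higher in GL261 against control MLECs (limma, adjusted p = 0.0103), and so was Cxcl10 (limma, adjusted p = 0.0214). No fold is given, since the control libraries were all at 0. Both genes passed the filter through tumor-associated libraries alone, mostly GL261, and a gene of this pattern had to differ. The call for Cxcl9 held under 16 of 18 alternative settings and that for Cxcl10 under 11 of 18. With no filter, Cxcl9 kept its call and Cxcl10 lost it. The setting without GL261 replicate 1, the library with the highest values of both genes, gave an adjusted p of 0.111 for Cxcl10, and leaving out GL261 replicate 2 or Control replicate 1 or 3 also ended the call for Cxcl10 (adjusted p = 0.0739, 0.0525 and 0.0554). Estimated depth as a covariate gave adjusted p = 0.801 for Cxcl9 and 0.842 for Cxcl10. In B16 against control MLECs the adjusted p was 0.917 for Cxcl9 and 0.564 for Cxcl10. The direct comparison of GL261 with B16 gave a difference of 5.96 (standard error 1.08) for Cxcl9, with an unadjusted p of 1.6e-04 and an adjusted p of 0.128 in limma. For Cxcl10 the difference was 5.18 (standard error 1.46, limma adjusted p = 0.400). Neither gene was therefore shown to differ between the tumor types. Of the 8 blood endothelial markers given with Cx3cl1, 5 were called higher in GL261 against control MLECs as well, and their part in these values was not tested. Cxcl9 and Cxcl10 are also on the study's own list of genes raised in tumor-associated MLECs, which was chosen on these libraries, so that list is not independent evidence of their direction.

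The windows of 250 bases before the annotated starts of Cxcl9 (chr5:92328080-92328329, minus strand) and Cxcl10 (chr5:92348890-92349139, minus strand) are shown because both genes were called in the same comparison and lie side by side. They are RefSeq sequences of GRCm38.p6, a later build than the mm9 coordinates above, written 5' to 3' on the strand of the gene, with capitals for matches to the searched motifs.
Cxcl9: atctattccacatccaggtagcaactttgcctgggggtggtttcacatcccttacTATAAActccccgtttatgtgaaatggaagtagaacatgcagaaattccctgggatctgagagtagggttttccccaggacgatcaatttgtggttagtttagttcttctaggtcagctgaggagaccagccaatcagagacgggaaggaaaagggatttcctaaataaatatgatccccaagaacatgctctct
Cxcl10: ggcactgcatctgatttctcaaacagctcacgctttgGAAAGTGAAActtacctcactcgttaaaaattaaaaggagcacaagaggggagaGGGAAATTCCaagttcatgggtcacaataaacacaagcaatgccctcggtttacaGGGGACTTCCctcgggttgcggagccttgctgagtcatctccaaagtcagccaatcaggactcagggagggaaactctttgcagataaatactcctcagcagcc
The motifs searched, on both strands, were the interferon-stimulated response element (ISRE, GAAANNGAAA), the gamma-activated site (GAS, TTCNNNGAA), the NF-kB site (GGGNNNTTCC) and the TATA box (TATAAA). The Cxcl10 window held 1 ISRE match, which began 213 bases before the start, and 2 NF-kB matches, which began 159 and 104 bases before it. The Cxcl9 window held a TATAAA match, which began 195 bases before the start, and no match to these ISRE, GAS or NF-kB letters. Of all 32851 windows of this length, 2.98% held the ISRE letters, 7.02% the GAS letters, 4.65% the NF-kB letters and 12.4% the TATAAA letters. A match is a description of the sequence and was not tested as a binding site, and windows were available for 6 of the 10 chemokines, not for Ccl2, Ccl5, Ccl7 or Cxcl16.

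**Figure D3:**
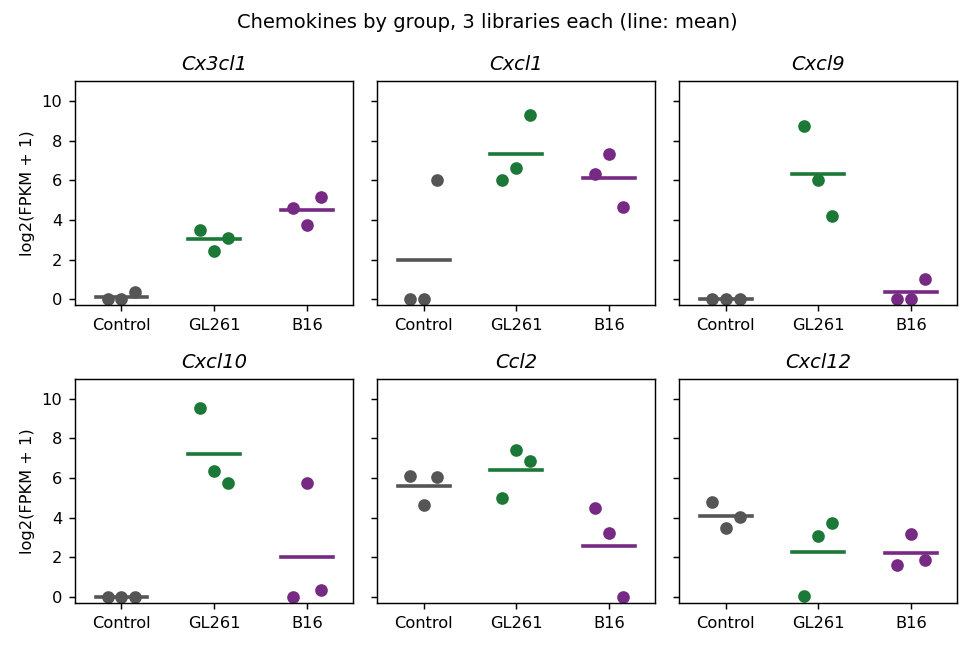
log2(FPKM + 1) of 6 chemokines in control (grey), GL261 (green) and B16 (purple) MLECs, with 1 point per library, 3 libraries per group and a line at the group mean. The tumor-associated libraries lie above every control library for Cx3cl1, the GL261 libraries above all others for Cxcl9, and the B16 libraries below the control libraries for Ccl2 and Cxcl12.

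Cx3cl1 encodes fractalkine, a chemokine on a mucin stalk that anchors it in the endothelial membrane until proteases shed it, and it attracts and holds monocytes and lymphocytes that carry CX3CR1. The gene lies at chr8:97295909-97306323 (mm9, plus strand). Its FPKM was 0, 0 and 0.283 in control, 10.4, 4.49 and 7.59 in GL261 and 23.6, 12.4 and 34.8 in B16 MLECs. The 6 tumor-associated libraries lay above every control library, and the B16 libraries also lay above every GL261 library. The single control value corresponded to about 1 fragment, whereas the tumor-associated libraries held about 103 to 490 fragments of the gene.

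Cx3cl1 was called higher in tumor-associated against control MLECs, with a log2 difference of 3.65 (standard error 0.75, limma adjusted p = 0.0170). It passed the filter through the tumor-associated libraries alone, and a gene of this pattern had to differ. With no filter its limma adjusted p was 0.0323. It also had the smallest p that 84 divisions of the libraries can give (exact permutation test, two-sided, p = 0.0119). It was the only one of the 10 chemokines whose groups did not overlap in this comparison, against 10.5% of all genes tested. The size depends on the pseudocount, since the controls were at or near 0, and was 6.32 with a pseudocount of 0.1. The rise in B16 against control MLECs was 4.39 (standard error 0.78, limma adjusted p = 0.0147), and without B16 replicate 3 the adjusted p was 0.0812. The difference in GL261 against control MLECs was 2.90 (standard error 0.78, limma adjusted p = 0.0724), which missed the threshold. It passed under 2 of 19 alternatives, among them a pseudocount of 0.1 (adjusted p = 0.0345). With each library left out in turn the adjusted p was 0.0865 to 0.245, and the highest of any alternative was 0.742. The GL261 libraries were lower than the B16 libraries by 1.49 on the log2 scale (standard error 0.78), and this difference did not pass the test (limma adjusted p = 0.974).

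With estimated depth as a covariate the difference of Cx3cl1 between tumor-associated and control MLECs was 4.93, and the adjusted p was 0.167. With the number of genes detected as a covariate it was 4.42, with an adjusted p of 0.211. Markers of blood endothelium moved with Cx3cl1. Of 8 markers fixed for that cell type, 7 were called higher in tumor-associated MLECs (Flt1, Cd34, Emcn, Esam, Plvap, Vwf and Nos3, not Kdr). Flt1 reached an FPKM of 1 in no control library, and a gene of this pattern had to differ. Summed over the 8 markers, FPKM ranged from 866 to 1630 among control and from 3662 to 7006 among tumor-associated libraries, with Vwf and Nos3 at 0 in Control replicate 1. Of 5 lymphatic markers, all were above 0 in each of the 9 libraries, and Flt4 was the 1 that was called, in the lower direction (adjusted p = 0.0160). The differences of 4 of the 5 were negative, with a median of -1.48 over the list, and included Prox1 (-2.79, adjusted p = 0.0509) and Pdpn (-1.48, adjusted p = 0.235). Prox1, the transcription factor of lymphatic identity, was at 20.9 to 42.2 in control and at 1.87 to 16.5 in tumor-associated MLECs. The part of these markers in the rise of Cx3cl1 was not tested.

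The window before the start of Cx3cl1 (chr8:94771930-94772179, GRCm38.p6, plus strand) is shown because it is the gene called in both the tumor-associated and the B16 comparison, with the same motifs in capitals.
Cx3cl1: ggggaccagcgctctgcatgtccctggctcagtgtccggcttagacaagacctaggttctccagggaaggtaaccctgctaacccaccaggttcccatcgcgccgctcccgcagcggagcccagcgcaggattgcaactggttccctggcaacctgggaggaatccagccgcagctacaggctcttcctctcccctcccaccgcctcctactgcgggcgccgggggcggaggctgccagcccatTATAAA
It held a TATAAA match over its last 6 bases and no match to the ISRE, GAS or NF-kB letters.

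Cxcl16 is the other chemokine of this kind, a transmembrane protein that also acts as a scavenger receptor and binds CXCR6 on T cells (chr11:70267485-70273486, mm9, minus strand). Its FPKM was 0, 11.6 and 0 in control, 2.79, 7.17 and 8.33 in GL261 and 13.0, 0 and 17.4 in B16 MLECs. Every group overlapped with the others. The difference between tumor-associated and control MLECs was 1.48 (standard error 1.09, limma adjusted p = 0.481). Values for GL261 and B16 against control were 1.51 and 1.45, with adjusted p of 0.609 and 0.663.

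Cxcl1 attracts neutrophils through CXCR2 and is a classical NF-kB target (chr5:91320267-91322141, mm9, plus strand). Its FPKM was 0, 0 and 62.9 in control, 63.5, 97.7 and 633 in GL261 and 78.6, 158 and 24.2 in B16 MLECs. Control replicate 3 lay just below the lowest GL261 library and above B16 replicate 3, so that control and tumor-associated libraries overlapped. At 0 in 2 of 3 control libraries and above 0 in all 6 tumor-associated ones, Cxcl1 differed by 4.71 (standard error 1.24), and the limma adjusted p of 0.0542 missed the threshold. The exact permutation test for this single gene gave p = 0.0238, unadjusted. Without Control replicate 3, the only control library above 0, the difference was 6.71 and the adjusted p 0.00278. The remaining control libraries were then at 0, and a gene of this pattern had to differ. Cxcl1 then passed the threshold in GL261 (adjusted p = 0.00631) and in B16 MLECs (adjusted p = 0.0179) as well. It passed under just 1 of 18 alternatives in tumor-associated MLECs, and under 1 of 19 in GL261 and in B16. For tumor-associated MLECs the adjusted p was 0.184 without Control replicate 1 and 0.164 without Control replicate 2. It was 0.316 with estimated depth and 0.415 with genes detected as a covariate. With all libraries the differences were 5.32 in GL261 (standard error 1.47, adjusted p = 0.0779) and 4.10 in B16 (standard error 1.47, adjusted p = 0.209). Between GL261 and B16 the difference was 1.22 (standard error 1.47, limma adjusted p = 1). Cxcl1 also stands on the study's list of raised genes.

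The window before the start of Cxcl1 (chr5:90890995-90891244, GRCm38.p6, plus strand) is shown for comparison with that of Cxcl10, as the other window with matches to the NF-kB letters.
Cxcl1: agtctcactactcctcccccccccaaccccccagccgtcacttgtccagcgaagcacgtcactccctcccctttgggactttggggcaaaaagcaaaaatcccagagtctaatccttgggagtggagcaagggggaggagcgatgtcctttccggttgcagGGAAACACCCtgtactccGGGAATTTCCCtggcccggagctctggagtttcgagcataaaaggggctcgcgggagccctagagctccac
It held 3 such matches, which began 89, 71 and 70 bases before the start, the last pair being the same stretch read on both strands. It had no match to the ISRE, GAS or TATAAA letters.

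Ccl2 and Ccl7 recruit monocytes through CCR2 and are neighbours on chromosome 11, at chr11:81849073-81850955 and chr11:81859214-81861027 (mm9, plus strand), 8.258 kb apart. Ccl2 was the chemokine with the highest median level in control MLECs, 64.2. Its FPKM was 66.7, 24.0 and 64.2 in control, 30.9, 168 and 115 in GL261 and 21.6, 8.49 and 0 in B16 MLECs. The B16 libraries lay below every control and every GL261 library, and the control and GL261 libraries overlapped. Joined into 1 tumor-associated group, these libraries differed from control by -1.08 (standard error 1.27, limma adjusted p = 0.693). The difference of B16 from control was -3.00 (standard error 1.05, adjusted p = 0.200) and that of GL261 from B16 was 3.83 (standard error 1.05, adjusted p = 0.381), and neither passed the test. Without overlap, 3 chemokines separated GL261 from B16, Ccl2 and Cxcl9 higher and Cx3cl1 lower in GL261, against 13.8% of all genes tested.

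Ccl7 was listed at 0, 16.5 and 0 in control, at 0.751, 0 and 147 in GL261 and at 0, 0 and 0 in B16 MLECs. It was above 0 in 3 of 9 libraries and reached an FPKM of 1 in only 2 of them. GL261 replicate 3, the library with 147, also had the highest Cxcl1 of all libraries, whereas its Ccl2 was below that of GL261 replicate 2. Ccl7 was not tested across genes, and the exact permutation test of tumor-associated against control libraries gave p = 1.

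Ccl5, which attracts T cells and monocytes and is made above all by T cells and natural killer cells, lies at chr11:83339280-83344020 (mm9, minus strand). It was listed at 86.9 in GL261 replicate 2 and at 0 in the other 8 libraries. About 231 estimated fragments lay behind that value. The same library was also the highest for Lyz2 (324), C1qa (186) and C1qb (163), which mark macrophages, and was the only one above 0 for Csf1r (4.61). Other markers of the list were not high there. Fcer1g was at 43.5, against 201 to 390 in control, Mrc1 at 1.37, against 11.3 to 82.2 in control, and Tyrobp at 43.5, below the 71.2 of Control replicate 3. The whole list of 11 leukocyte and macrophage markers had 8 above 0 there. Summed over that list, FPKM ranged from 312 to 635 among control, from 58.8 to 787 among GL261 and from 43.5 to 306 among B16 libraries, and GL261 replicate 2 was the library at 787. Ptprc, which encodes CD45, and Adgre1 were at 0 in all 9 libraries, and so were the T cell genes Cd3e, Cd3d and Cd8a. Cd4 was at 2.90 in B16 replicate 1 alone. The part of other cells in the value of Ccl5 was not tested. The library with the most Cxcl9 and Cxcl10, GL261 replicate 1, had a leukocyte sum of 149.7, and the part of other cells in those values was not tested either.

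Cxcl12 is the ligand of CXCR4 and ACKR3 and a homeostatic chemokine of stroma and endothelium (chr6:117118553-117131385, mm9, plus strand). It was the only one of the 10 listed above 0 in all 9 libraries. Its FPKM was 26.7, 10.1 and 15.1 in control, 0.0445, 7.30 and 12.2 in GL261 and 2.06, 8.00 and 2.63 in B16 MLECs. GL261 replicate 1, with about 2 fragments, was the lowest library, and GL261 replicate 3 was the only tumor-associated library that reached into the control range. The difference between tumor-associated and control MLECs was -1.85 (standard error 0.86, limma adjusted p = 0.264), and the exact permutation test gave p = 0.0595. In GL261 it was -1.81 (standard error 1.03, adjusted p = 0.407) and in B16 -1.88 (standard error 1.03, adjusted p = 0.424). The B16 libraries did not overlap with control, as was the case for 17.2% of all genes tested, and for 3 of the 10 chemokines (Cx3cl1 higher, Ccl2 and Cxcl12 lower).

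Ccl19, which with Ccl21 guides CCR7-bearing dendritic cells and T cells, lies at chr4:42768057-42770109 (mm9, minus strand). It was listed at 8.91 in GL261 replicate 3, at 2.55 in B16 replicate 1 and at 0 in the other 7 libraries. The lower of these values rested on about 3 fragments and the higher on about 21. The exact permutation test of tumor-associated against control gave p = 0.5, and the gene was too rare for the test across genes.

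**Figure D4:**
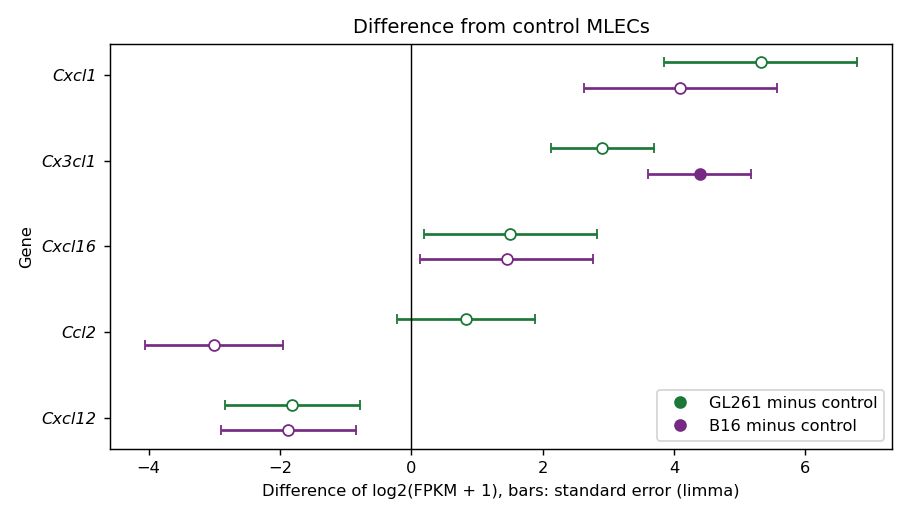
Difference in log2(FPKM + 1) of GL261 (green) and B16 (purple) from control MLECs (horizontal axis) for the 5 tested chemokines whose control libraries were not all at 0, with limma standard errors as bars. A filled point marks an adjusted p under 0.05, which only Cx3cl1 in B16 MLECs reached, and Ccl2 has a positive value in GL261 and a negative one in B16.

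The receptors of these chemokines were looked up in the same libraries. Of 23 chemokine receptor genes, 10 were above 0 in at least 1 library and 5 could be tested. Ackr3, the atypical receptor that scavenges Cxcl12, was called higher in tumor-associated MLECs, as 1 of 5 (adjusted p = 0.00341), beside 3.93% of all genes tested. Its FPKM was 0.678, 8.44 and 0.458 in control, 96.8, 37.7 and 33.7 in GL261 and 145, 48.3 and 214 in B16 MLECs. Every tumor-associated library exceeded every control library, a separation that 10.5% of all genes tested showed, and the difference was 4.75 (standard error 0.76). The call held under 16 of 18 alternatives, and the adjusted p was 0.190 with estimated depth and 0.224 with genes detected as a covariate.

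Ackr1, an atypical receptor of venular endothelium that binds Ccl2, Ccl5, Ccl7 and Cxcl1 among others, was listed at 0 in all 3 control libraries, at 543, 168 and 636 in GL261 and at 0, 0 and 114 in B16 MLECs. It was called in GL261 against control MLECs (limma adjusted p = 0.0113), not in tumor-associated against control (adjusted p = 0.154). Without GL261 replicate 1 or 3 the adjusted p in GL261 was 0.0623 or 0.0550. Ackr1 passed the filter through tumor-associated libraries alone, and a gene of this pattern had to differ. Ackr2, the decoy receptor for inflammatory CC chemokines that is typical of lymphatic endothelium, was detected in every library, at 3.93, 28.9 and 8.35 in control, 23.6, 46.5 and 43.2 in GL261 and 87.1, 28.9 and 48.7 in B16 MLECs. Control replicate 2 lay within the range of the tumor-associated libraries. The difference was 1.97 (standard error 0.61) with a limma adjusted p of 0.0996. Ackr2 passed under 1 of 18 alternatives, without Control replicate 2, where the difference was 2.68 and the adjusted p 0.0249. The adjusted p was 0.261 without Control replicate 1 and 0.190 without Control replicate 3. It was 0.593 with genes detected and 0.401 with estimated depth as a covariate. Ackr4 was at 0.440 in Control replicate 3 alone.

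The signaling receptors were rarely detected. Cxcr4 was at 0 in all control libraries, at 7.65, 0 and 0.144 in GL261 and at 7.12, 2.01 and 0.695 in B16 MLECs. Cxcr3, the receptor of Cxcl9 and Cxcl10, was at 15.2 in B16 replicate 3 and at 0 elsewhere, and Cx3cr1, the receptor of fractalkine, was at 0.0370 in GL261 replicate 1 alone. Ccr1, Ccr2, Ccr7, Cxcr2 and Cxcr6 were at 0 in all 9 libraries.

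**Figure D5:**
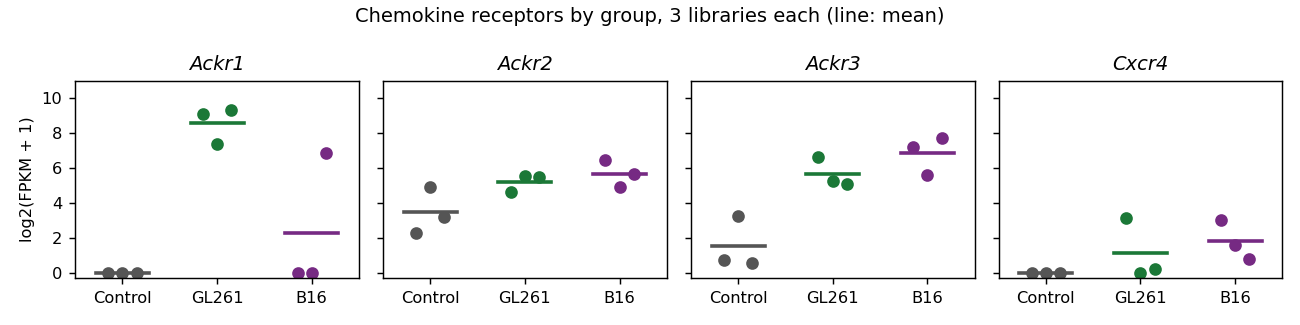
log2(FPKM + 1) of the atypical receptors Ackr1, Ackr2 and Ackr3 and of Cxcr4 in the 3 groups, with 1 point per library and a line at the group mean. Ackr3 lies above every control library in all 6 tumor-associated libraries, Ackr1 is at 0 in control and in 2 of 3 B16 libraries, and Ackr2 is detected in all 9.

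Of 26 other chemokine ligands, 25 had a row, 12 were above 0 in at least 1 library and 6 could be tested. In tumor-associated against control MLECs limma called 0 of the 6. The unadjusted p was under 0.05 for 1, Pf4. In GL261 against control MLECs it called 1, Ccl8, a CC chemokine for monocytes that is named here after its values were seen (adjusted p = 0.0146). Ccl8 was at 0 in all control and B16 libraries and at 16.4, 932 and 52.1 in GL261 MLECs. It passed the filter through the GL261 libraries alone, so that a gene of this pattern had to differ, and without any of the 3 it could not be tested. The adjusted p was 0.0537 with the compared groups alone, 0.0538 with no filter, 0.499 with genes detected and 0.728 with estimated depth as a covariate. Like Cxcl9, it was thus above 0 in every GL261 library, but its highest value was in replicate 2 and not in replicate 1. Cxcl11, the third ligand of CXCR3, was at 16.9 in GL261 replicate 1, the library with the most Cxcl9 and Cxcl10, and at 0 elsewhere. The neutrophil chemokine Cxcl2 was at 0, 1.90 and 0 in control, 6.77, 0.306 and 0 in GL261 and 67.8, 9.45 and 9.21 in B16 MLECs. Cxcl2 and Cxcl11 were also chosen after their values were seen.

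Among 25 cytokine receptors and signaling factors upstream of chemokine genes, all of which were tested, 4 were called higher and 0 lower in tumor-associated MLECs, beside 3.93% of all genes tested (2.9% higher). Tnfrsf1a, the main receptor of tumor necrosis factor, was at 49.5 to 60.2 in control and 141 to 192 in tumor-associated MLECs, a difference of 1.50 (standard error 0.29, limma adjusted p = 0.0109). Nfkbia, the inhibitor that NF-kB induces against itself, was at 256 to 437 in control and 546 to 962 in tumor-associated MLECs (1.11, standard error 0.27, adjusted p = 0.0346). Tnfaip3, another NF-kB target and inhibitor, was at 0 in all control libraries and at 3.74 to 36.1 in tumor-associated ones (adjusted p = 0.0355). Tnfaip3 passed the filter through the tumor-associated libraries alone, and a gene of this pattern had to differ. With no filter its limma adjusted p was 0.0744. Hif1a, the hypoxia factor that can raise Cxcl12, was at 3.20 to 20.5 in control and 29.3 to 96.2 in tumor-associated MLECs (2.36, standard error 0.59, adjusted p = 0.0434). The median difference of the 25 was 0.83, beside 0.20 for all genes tested. The calls for Nfkbia and Hif1a held under 5 of 18 alternatives each, that for Tnfaip3 under 7 and that for Tnfrsf1a under 15. With each library rescaled to the same sum, the difference of Nfkbia was 0.89 (adjusted p = 0.0850) and that of Hif1a 2.18 (adjusted p = 0.0709).

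In GL261 against control MLECs, where 3.49% of all genes tested were called, 4 of the 25 were called, Tnfrsf1a and Nfkbia again, and Irf7 and Socs1, which interferons induce. Irf7 was at 8.81, 0 and 0.540 in control, 178, 122 and 293 in GL261 and 25.3, 0 and 34.2 in B16 MLECs (GL261 against control, 6.24, standard error 1.29, adjusted p = 0.0226). Socs1 was at 0 in all control libraries, at 56.8, 65.6 and 8.84 in GL261 and at 0.498, 14.3 and 15.8 in B16 MLECs (GL261 against control, adjusted p = 0.0306). The GL261 libraries lay above all others for Irf7. Socs1 passed the filter through tumor-associated libraries alone, and a gene of this pattern had to differ. The calls for Irf7 and Socs1 each held under 10 of 19 alternatives. Irf7 missed the threshold without GL261 replicate 1, 2 or 3 (adjusted p = 0.0948, 0.0824 and 0.0940) and without Control replicate 2 or 3 (0.0585 and 0.0659). Socs1 missed it without Control replicate 1, 2 or 3 (0.0627, 0.0556 and 0.0656), without GL261 replicate 1 or 2 (0.135 and 0.140) and with the replicate number as a block (0.0568). In B16 against control MLECs 1 of the 25, Tnfrsf1a, was called (adjusted p = 0.0410), beside 2.11% of all genes tested. Irf7 and Socs1 were singled out after their values were seen.

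Of 17 genes for the processing and surface retention of chemokines, 14 were tested and limma called 0 in tumor-associated against control MLECs, with a median difference of 0.49. The unadjusted p was under 0.05 for 2, Ndst1 and Sdc4. Adam10, a protease that sheds Cx3cl1 and Cxcl16, was at 33.9 to 88.1 in control and at 50.0 to 85.7 in tumor-associated MLECs. Adam17, the other sheddase, was at 16.3 to 23.9 in control and at 1.17 to 15.5 in tumor-associated MLECs. Its difference was -1.05 (standard error 0.71, limma adjusted p = 0.440) and was not called. Groups without overlap were found for 10.5% of all genes tested in that comparison. Sdc4, a heparan sulfate proteoglycan, was the 1 gene of the list called in GL261 against control MLECs, with 0, 0.235 and 0 in control and 12.7, 9.86 and 10.4 in GL261 libraries (adjusted p = 0.0279). That call held under 10 of 19 alternatives, and was lost without GL261 replicate 1, 2 or 3 (0.108, 0.0950 and 0.0732) and without Control replicate 1 or 3 (0.0600 and 0.0617). Sdc4 passed the filter through tumor-associated libraries alone, and a gene of this pattern had to differ. Adam10, Adam17 and Sdc4 were likewise chosen after their values were seen.

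The genes whose log2(FPKM + 1) most resembled each tested chemokine over the 9 libraries are given as a description, with Pearson's r over libraries that share 3 groups and unequal depths. For Cxcl9 they were Apol9b (0.98), AW112010 (0.98) and Serpina3f (0.97). For Cx3cl1 they were Gstm2 (0.98), Prmt1 (0.98) and Inhbb (0.98), all 3 at 0 in the control libraries. For Cxcl10 they were Gltscr1 (0.96), Psat1 (0.95) and Itga2b (0.95), and for Cxcl1 they were Lemd2 (0.96), Stmn1 (0.96) and Bpgm (0.95). Cxcl16 was closest to Irak4 (0.99), Phrf1 (0.97) and Rpa2 (0.97). Ccl2 was closest to Dusp12 (0.93), Dhx40 (0.89) and Krcc1 (0.88), and Cxcl12 to Piezo2 (0.91), Trnt1 (0.91) and Adsl (0.90). No chemokine of the 10 was among the 3 genes most like another.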

How the data were processed

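Libraries of 10 sorted MLECs were compared in 3 groups of 3, grouped by the sample labels. The authors trimmed the reads, aligned them to mm9 with TopHat2 2.0.12 and computed expression with Cufflinks 2.2.1, per the paper and the submitters' processing notes, and deposited FPKM, 1 value per gene symbol and library. The gene annotation used is not given in the sources used here. FPKM hold no counts, so no count model or counting interval was used.

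From these, log2(FPKM + 1) was tested with limma 3.58.1 in R 4.3.3 (lmFit, eBayes with a trend, Benjamini-Hochberg) on genes that reached an FPKM of 1 in 3 or more libraries, after a check on simulated data. GL261 and B16 were joined for the tumor-associated comparison, and 3 groups were fitted for the others. For single genes, exact permutation tests (two-sided) were used, whose smallest p is 0.0119 for 3 against 6 libraries and 0.1 for 3 against 3. Libraries are pools of different animals. Depth was estimated from the FPKM that 1 fragment gives, for genes with 1 transcript, taking 200 bases off the length. Between 61.2% and 71.6% of low values lay within 0.1 of a whole number of fragments, so depths and fragment numbers are approximate. Positions came from GENCODE M1 (mm9) and upstream windows from RefSeq (GRCm38.p6).

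The chemokines, gene lists and markers were chosen with earlier results of these data known. Genes named were the chemokines, their receptors above 0, listed genes called in tumor-associated against control or GL261 against B16 MLECs, and the 3 genes most like each tested chemokine. Other list genes and the markers given as values are named after their values were seen, and the values of some list genes are not reported here. Alternatives were pseudocount 0.1, other filters, rescaling to a common sum, quantile normalization, eBayes without a trend, a replicate block, genes detected as a covariate, the compared groups alone and each library left out. Estimated depth as a covariate was added after seeing the data.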

Additional observations from a re-analysis of the deposited data

Results flagged for a closer look

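Ccl5 was flagged in the 6 tumor-associated libraries because GL261 replicate 2, at an FPKM of 86.9, stood apart from the other 5, which were at 0 (gap over range 1). Ccl7 was flagged because GL261 replicate 3, at 147, stood apart from the rest, of which the next highest was at 0.751 (gap over range 0.888 on the log2 scale). The cutoff flags about 1 in 20 groups by chance only where values are normally distributed. That rate does not hold here, since both genes were at 0 in most libraries. A gene above 0 in a single library always has a gap over range of 1, so Ccl5 had to be flagged. No explanation was tested.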

How the results depend on the processing

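Cx3cl1 in tumor-associated against control MLECs passed the threshold under 16 of 18 alternatives, with differences of 3.37 to 6.32, and lost the call with genes detected or estimated depth as a covariate. The number of chemokines called was then 0 in the tumor-associated, GL261 and B16 comparisons. In GL261 it was 1 with no filter and 0 among genes above 0 in at least 6 libraries, where Cxcl9 and Cxcl10 were not tested. In B16 it was 0 with the compared groups alone. With each library left out in turn it was 1 to 2 in the tumor-associated comparison, 1 to 2 in GL261 and 0 to 2 in B16 (0 without B16 replicate 3, 2 without Control replicate 3), and the chemokines without overlap between control and tumor-associated libraries numbered 1 to 2.

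Of all genes, 391 were called in the tumor-associated comparison, 254 with no filter, 11 with genes detected, 9 with estimated depth and 245 to 444 with a library left out. In GL261 these numbers were 347, 218, 6, 3 and 105 to 363, with 197 for the compared groups alone. In B16 they were 210, 135, 16, 5 and 69 to 274, with 38 for the compared groups alone. Between GL261 and B16, 1 gene was called, 2 after quantile normalization, 6 without a trend and 1 to 4 with a library left out. Deviations of same-numbered libraries correlated at -0.0334 to 0.0443 and those of different-numbered libraries at -0.0302 to 0.0522. No pairing by replicate number was thus seen, though this check cannot exclude one. With replicate numbers as a block, 230 genes were called in GL261, and the number of chemokines called did not change in any comparison.

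Signs changed, Socs1 apart, for values that passed no test. Cxcl9 was at -1.58 in tumor-associated and -1.07 in B16 against control with genes detected, and at -2.60 and -1.25 with estimated depth, which also gave -0.82 for Cxcl10 in tumor-associated and -0.44 for Socs1 in GL261, called at 5.07 without a covariate. With genes detected, GL261 against control gave 0.23 for Cxcl12 and -0.39 for Cxcl16. Between GL261 and B16, Cxcl12 was at -0.62 with a pseudocount of 0.1, -0.11 after rescaling and -0.66 to 1.17 with a library left out, and Cxcl16 at -0.061 after quantile normalization, -0.74 with genes detected, -0.030 with estimated depth and -1.28 to 0.82 with a library left out. The causes were not tested. Libraries of 10 cells at 1.20 to 8.00 M fragments limit what a value of 0 can show.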

Other observations

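Marker lists for other cells that a meningeal sort could hold were also read beside the chemokines. Of 5 fibroblast markers, Dcn was the 1 tested, and it was called lower. It was at 15.7 to 44.9 in control and 0 to 0.146 in tumor-associated MLECs. Dcn passed the filter through the control libraries alone, and a gene of this pattern had to differ. Lum was at 0 in all 9 libraries. Of 5 mural markers, Kcnj8 was the 1 tested and was not called. Acta2 was at 505 in Control replicate 1, at 0 in Control replicates 2 and 3 and at 0 to 6.34 in tumor-associated MLECs. The melanoma genes Tyrp1, Mlana and Tyr were at 0 in every library, Dct reached 0.783 in B16 replicate 2, and Pmel was at 4.07 in GL261 replicate 2, the library that held Ccl5. Of 5 glioma and neural genes, Nes was the 1 tested and was not called. It was at 0.102, 0 and 0 in control, 1.65, 1.30 and 0.0374 in GL261 and 0, 9.08 and 2.87 in B16 MLECs. Gfap and Sox2 were at 0 in every library, and GL261 replicate 1 alone held Olig2 (3.04) and Sox10 (0.159). Of 3 platelet markers, Itga2b was the 1 tested and was not called. It was at 0 in all control libraries, at 4.11, 3.26 and 0.695 in GL261 and at 0, 1.57 and 0 in B16 MLECs. Gp9 was at 0 in every library, and Gp1bb was at 1.38 in Control replicate 2 and 1.09 in GL261 replicate 2. Pf4, a chemokine of platelets and macrophages, was at 0 in control, at 12.7, 0 and 187 in GL261 and at 17.0, 54.2 and 35.9 in B16 MLECs.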
